A study of Lotus japonicus with 6 samples.

Results

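Cinnamate 4-hydroxylase is the cytochrome P450 (family CYP73A) that hydroxylates cinnamic acid to p-coumaric acid. It acts between phenylalanine ammonia-lyase, which makes cinnamic acid from phenylalanine, and coumarate CoA ligase, which activates p-coumaric acid for the flavonoid, isoflavonoid and lignin branches. The enzyme sits in the endoplasmic reticulum membrane and takes its electrons from a P450 reductase. In legumes such as Lotus japonicus this general pathway feeds isoflavonoid phytoalexins as well as the lignin, flavonol and proanthocyanidin routes found in other plants.

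The family was taken here as every non-control spot whose array name begins with C4H or CYP73A, and names that share a locus identifier were counted as 1 gene. This gave 6 genes under 10 names, measured by 20 probes on 70 spots, of 2881 genes, 6358 probes and 14642 spots on the array. Only 1 of the 6 carries a chromosome in its name, C4H01_chr5.LjT24B10.30.nc on chromosome 5, and the names are the array's own, with no build or description attached.

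The samples were leaves of Lotus japonicus of germplasm MG20, raised in vitro on MS medium, with 1 Agilent array of custom 1-colour design per sample. The transgenic group was 3 independent lines, labelled as overexpressing the MYB transcription factor gene LjMyb14 from a Lotus ubiquitin promoter (a promoter active in most tissues), with 1 array each. They were set against 3 arrays of wild type leaf of the same germplasm, and no vector-only line is among the samples. Levels are log2 of the background-subtracted intensity minus the array's 75th percentile, so that 0 stands for the 75th percentile spot. A level belongs to its own probe and cannot be ranked against that of another probe.

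The difference between wild type 1 and wild type 3 had 0.545 times the variance that repeat spots of a probe give, while the other 5 within-group pairs of arrays had 2.27 to 8.61 times that variance. Wild type 1 and 3 were averaged into 1 sample, which leaves n = 3 lines and n = 2 wild type samples. The p-values measure the spread between these samples. The labelled transgene was not seen to differ. The tested LjMYB14 probe stood at -5.79, -4.62 and -6.03 in lines 1 to 3, against -6.07, -5.20 and -5.89 in wild type 1 to 3, a log2 fold change of 0.11 (limma adjusted p = 0.939). The second LjMYB14 probe was well above background on 1 line array and on 0 wild type arrays, and whether either probe lies in the introduced sequence is not given. The probe named LjMYB76a, by contrast, stood at 5.77, 6.01 and 5.76 in the lines, against -1.82, -1.59 and -1.75 in wild type (log2 fold change 7.54, limma adjusted p = 0.000189). The transgenic samples are therefore called the labelled lines below. The array holds few names that mark a tissue. The 6 YABBY genes, regulators of lateral organs such as leaves, were all tested and none was called, and their summed level was 6.30 to 7.37 in the labelled lines and 6.98 to 7.25 in wild type. Of 86 MADS-box genes, many of which act in flowers, 53 were tested, 1 rose and 1 fell, and 23 were well above background on no array. The same linear sum over all 86, tested or not, was 17.95 to 20.35 in the labelled lines and 21.06 to 23.75 in wild type. The part of this difference in the results below was not tested. Bulk leaf RNA cannot tell a change in RNA per cell apart from a change in the mix of cells.

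All 6 cinnamate 4-hydroxylase genes had a higher mean in the labelled lines than in wild type at their brightest probe, and at that probe the 3 lines lay above the 3 wild type arrays for each of the 6. Of the 6, 3 rose at a limma adjusted p under 0.05 and 0 fell, while 2.21% of the 2487 tested genes rose and 1.09% fell. The genes that rose were LjSGA_082453.1 (9.29-fold), LjSGA_029001.1 (6.74-fold) and LjSGA_031602.1 (3.03-fold). Those that missed the threshold had fold changes of 2.83 (CYP73ALT_ntc), 2.72 (LjSGA_003295.2) and 2.35 (chr5.LjT24B10.30.nc). For comparison, 42.1% of all genes tested had a positive fold change and 15.4% had all lines above all wild type arrays. The median log2 fold change was 1.55 over the 6 genes and -0.09 over all genes.

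**Figure D1:**
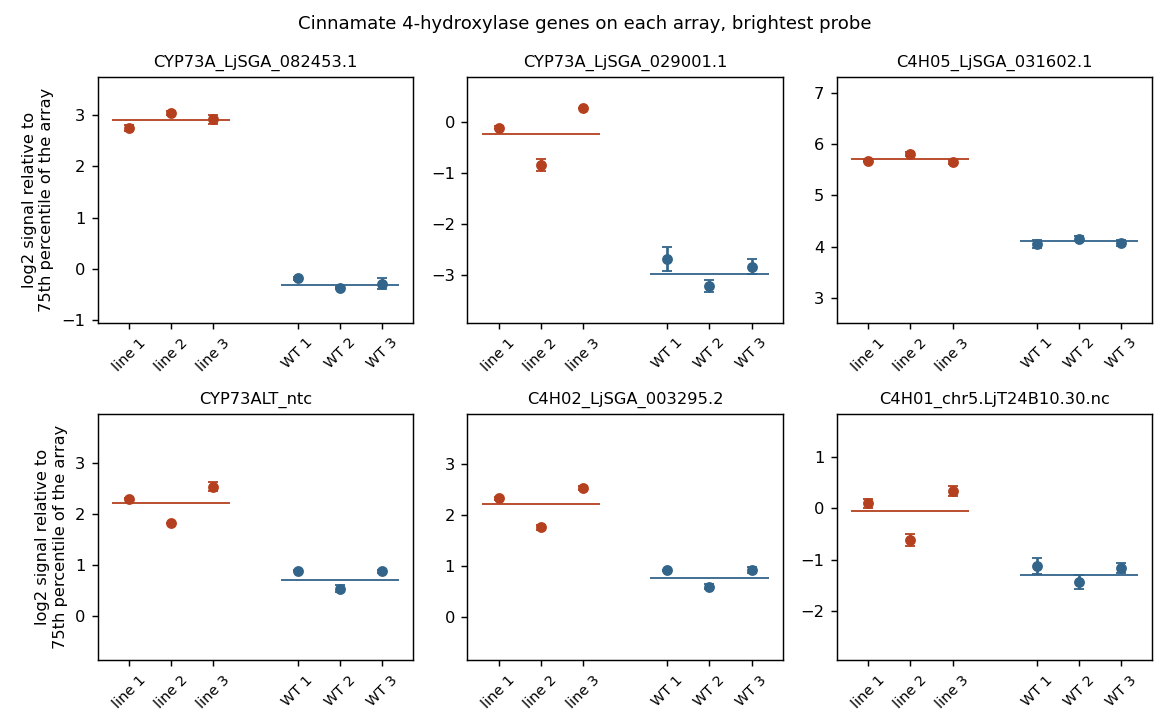
Level of each cinnamate 4-hydroxylase gene at its brightest probe on every array, as log2 intensity over the array's 75th percentile, with the labelled lines on the left and wild type on the right of each panel horizontal lines at the group means (wild type as 2 samples), error bars giving the SD between spots of the probe on an array, and the same span on every axis. In every panel the 3 lines lie above the 3 wild type arrays, and the gap is widest for CYP73A_LjSGA_082453.1, at 2.91 against -0.31.

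The LjSGA_082453.1 gene, listed under the names CYP73A and C4H03, showed the largest change of the family. At its brightest probe (CYP73A_LjSGA_082453.1) the level was 2.75, 3.05 and 2.92 in lines 1 to 3, against -0.18, -0.38 and -0.29 in wild type 1 to 3. The groups were far apart relative to their spread, since the 3 lines spanned 0.30 and the wild type arrays 0.20. As deposited intensities, averaged in log2 over the probe's unflagged spots, these were 2721, 3223 and 3050 in the lines, against 341, 280 and 317 in wild type. The means were 2.91 ± 0.15 in the lines (SD, n = 3) and -0.31 ± 0.10 in wild type (SD, n = 2). The log2 fold change was 3.22 (95% interval 2.71 to 3.72, SE 0.202, limma adjusted p = 0.00396). With slide row as a block, the only row holding both groups being that of line 1 and the wild type arrays, it was 3.06 and lost the call (limma adjusted p = 0.0920). The call was also lost without wild type 2 (3.14, limma adjusted p = 0.0643) and without wild type 1 and 3 (3.29, limma adjusted p = 0.114).

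All 4 probes of LjSGA_082453.1 gave nearly the same ratio as reported. The brighter C4H03 probe gave 3.24 on the log2 scale, and the dimmer probes gave 3.31 (CYP73A) and 3.33 (C4H03), with limma adjusted p-values from 0.00396 to 0.0125. The reported changes ranked 27 to 32 by size among the rises of the 5039 tested probes. With normexp background correction the brighter probes gave 3.01 and 3.02, but the dimmer ones 2.35 (CYP73A) and 2.43 (C4H03), all called. This setting adds an offset of 50 to each intensity, which lowers ratios most at dim probes. Wild type intensities at the dimmer CYP73A probe were 63, 41 and 72. The part of the offset in the lower values was not tested. The dimmer probes lost the call with spike-in scaling (limma adjusted p = 0.0540 and 0.0514) and without line 1 (limma adjusted p = 0.0842 and 0.0593). The order of the lines, however, differed between brighter and dimmer probes. At the brightest probe line 2 was the highest line, 0.21 above the mean of lines 1 and 3, whereas at the dimmer CYP73A probe the lines stood at 0.47, 0.11 and 0.83, against -2.62, -3.16 and -2.43 in wild type, with line 2 lowest by 0.54. Which line carried most of this transcript therefore depended on the probe, while the separation of lines from wild type did not.

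The LjSGA_029001.1 gene, listed as CYP73A and C4H04, was the other member that changed by more than 6-fold. Its brightest probe (CYP73A_LjSGA_029001.1) read -0.11, -0.85 and 0.28 in lines 1 to 3, against -2.68, -3.21 and -2.83 in wild type 1 to 3. Line 2 was the lowest of the lines, 0.93 below the mean of the other two, and wild type 2 the lowest of the wild type arrays, and the groups did not overlap. The means were -0.23 ± 0.57 in the lines (SD, n = 3) and -2.98 ± 0.32 in wild type (SD, n = 2), a log2 fold change of 2.75 (95% interval 1.80 to 3.71, SE 0.382, limma adjusted p = 0.0288). Its other probes gave 2.73, 2.85 and 2.99, all called. Wild type intensities at its brightest probe were 61, 39 and 55, close to the offset of 50 that the normexp setting adds. The call was lost without line 1, line 3 (limma adjusted p = 0.0533), wild type 2 or wild type 1 and 3, with slide row as a block and with spike-in scaling, and normexp background correction moved the fold change to 1.81 on the log2 scale.

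The LjSGA_031602.1 gene, listed as C4H05 and CYP73A, changed least among the 3 that were called but varied least between arrays. Its brightest probe (C4H05_LjSGA_031602.1) read 5.67, 5.81 and 5.64 in lines 1 to 3, against 4.05, 4.16 and 4.07 in wild type 1 to 3. Its deposited intensities, averaged in the same way over unflagged spots, were 20557, 21908 and 20128 in the lines, against 6427, 6490 and 6512 in wild type. No spot of the arrays was saturated. The lines spanned 0.17 and the wild type arrays 0.10, with no overlap. The means were 5.71 ± 0.09 in the lines (SD, n = 3) and 4.11 ± 0.07 in wild type (SD, n = 2), a log2 fold change of 1.60 (95% interval 1.13 to 2.07, SE 0.189, limma adjusted p = 0.0223). Its other probes gave 1.56, 1.59 and 1.56, each called. With quantile normalization the brightest probe gave 1.15 (limma adjusted p = 0.0349). At that setting the 3 uncalled genes gave 1.26 to 1.44, and the dimmer C4H05 and CYP73A probes of LjSGA_031602.1 lost the call (limma adjusted p = 0.0514 and 0.0600). The omissions and settings that ended the call of LjSGA_029001.1 also ended that of LjSGA_031602.1 at its brightest probe. Without line 3 the limma adjusted p was 0.0523.

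The remaining 3 genes had fold changes of 2.35 to 2.83, and none passed the test. The SD of their lines was 0.36 to 0.50. That was wider than at LjSGA_082453.1 (0.15) and LjSGA_031602.1 (0.09), but narrower than at the called LjSGA_029001.1 (0.57). CYP73ALT_ntc, a CYP73A name with no locus identifier, read 2.30, 1.81 and 2.52 in lines 1 to 3, against 0.89, 0.54 and 0.87 in wild type 1 to 3, with line 2 and wild type 2 the lowest of their groups and no overlap. Its means were 2.21 ± 0.36 in the lines (SD, n = 3) and 0.71 ± 0.24 in wild type (SD, n = 2), a log2 difference of 1.50 (95% interval 0.79 to 2.21, limma adjusted p = 0.0587). Its dimmer probe was well above background on 4 arrays, 2 of each group, and its log2 difference was 0.02 (95% interval -1.22 to 1.26) with overlapping groups. That dimmer probe is the only tested probe of the family at which the groups overlapped.

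The LjSGA_003295.2 gene (C4H02) read 2.32, 1.76 and 2.53 in lines 1 to 3, against 0.92, 0.60 and 0.92 in wild type 1 to 3. Here too line 2 was the lowest line and wild type 2 the lowest wild type array. The means were 2.21 ± 0.40 in the lines (SD, n = 3) and 0.76 ± 0.22 in wild type (SD, n = 2), a log2 difference of 1.44 (95% interval 0.70 to 2.19, limma adjusted p = 0.0732). Its dimmer probe was well above background on only 3 arrays and gave 0.70 (95% interval -0.02 to 1.42, limma adjusted p = 0.258).

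The chromosome 5 gene (C4H01_chr5.LjT24B10.30.nc, also listed as CYP73A) read 0.10, -0.62 and 0.34 in lines 1 to 3, against -1.13, -1.43 and -1.17 in wild type 1 to 3. Line 2 was 0.84 below the mean of lines 1 and 3, and the groups did not overlap. The means were -0.06 ± 0.50 in the lines (SD, n = 3) and -1.29 ± 0.20 in wild type (SD, n = 2), a log2 difference of 1.23 (95% interval 0.39 to 2.07, limma adjusted p = 0.132), and the matching CYP73A probe gave 1.25. The dimmer probes of this gene were not tested. The C4H01 probe was well above background on 0 arrays, and the CYP73A probe on line 1 only. No fold is given for either.

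**Figure D2:**
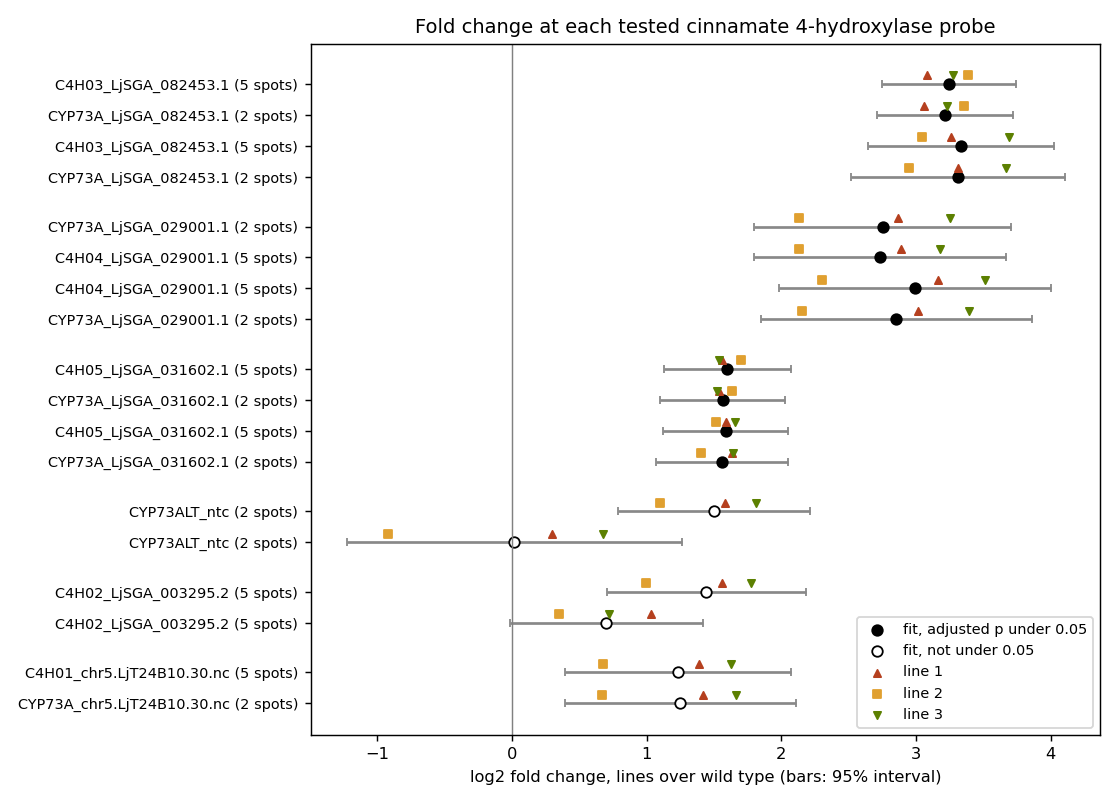
Log2 fold change (labelled lines over wild type) and its 95% interval at each of the 18 tested cinnamate 4-hydroxylase probes, grouped by gene, with small markers for each line minus the wild type mean and filled circles for an adjusted p under 0.05. Of these, 12 were called and 17 had the 3 lines above all wild type arrays, and the intervals are wider for LjSGA_029001.1 than for LjSGA_031602.1.

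Over single probes, 12 of the 18 tested were called higher and 0 lower, while 2.3% of all 5039 tested probes were called higher and 1.13% lower. Of the 18, 17 had all lines above all wild type arrays, a separation seen for 15.7% of all probes. Probes of 1 gene share its RNA and are not independent measurements. Each member probe was matched to the member probe under another name whose levels were closest, so closeness within a pair is partly set by that choice. Unmatched probes of 1 locus could stand far apart. For LjSGA_082453.1 the line mean was 2.91 at the brightest CYP73A probe and 0.47 at the dimmer C4H03 probe. Among probes well above background on every array there were 8 such matched pairs under different names, 7 of them sharing a locus, and within a pair the levels differed by at most 0.06 to 0.28 on any array and the log2 fold changes by at most 0.14.

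The pair that does not share a locus name was CYP73ALT_ntc with C4H02_LjSGA_003295.2, and it was the closest of all. These probes differed by 0.06 or less on each of the 6 arrays, and of all tested probes 0 others came as close to either. Their log2 differences between lines and wild type, 1.50 and 1.44, therefore cannot be counted as separate evidence. Whether both names stand for 1 transcript cannot be told from the names, and the family may hold fewer than 6 genes. Close copies of a P450 can also share signal on a probe, which was not tested.

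The size of the change was compared between members as the difference of their log2 levels in each sample, over 15 pairs of genes. LjSGA_082453.1 moved by 1.62 more than LjSGA_031602.1, by 1.72 more than CYP73ALT_ntc, by 1.77 more than LjSGA_003295.2 and by 1.98 more than the chromosome 5 gene. In each of these 4 pairs the lines and the wild type samples did not overlap (exact permutation, two-sided p = 0.2, adjusted 0.273), and 0.2 is the smallest p that 10 splits of 3 lines and 2 wild type samples allow. CYP73ALT_ntc and LjSGA_003295.2, whose changes differed by only 0.055, gave the same p without overlap. A lack of overlap among so few samples therefore does not show a sizeable difference. LjSGA_082453.1 and LjSGA_029001.1 differed by 0.46 in their change with overlapping samples (exact permutation p = 0.4, adjusted 0.5). With normexp background correction this difference was 1.21 and the samples did not overlap (exact permutation, adjusted p = 0.273). LjSGA_029001.1 moved by 1.15 more than LjSGA_031602.1 and by 1.31 more than LjSGA_003295.2, both without overlap (exact permutation p = 0.2, adjusted 0.273). Normexp lowered these differences to 0.23, with overlap (exact permutation, adjusted p = 0.692), and to 0.43. The size of these differences therefore depended on the background correction. The order of the fold changes did not, since with normexp LjSGA_029001.1 (1.81) still lay between LjSGA_082453.1 (3.01) and LjSGA_031602.1 (1.57). LjSGA_031602.1 differed from CYP73ALT_ntc by 0.10 and from LjSGA_003295.2 by 0.15 with overlapping samples (exact permutation p = 1), and the 0.10 was 0.17 with all 6 arrays counted singly. The design cannot bring any of these below 0.05.

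Samples numbered 2 stood apart in part of the family. Line 2 was below the mean of lines 1 and 3 by 0.93, 0.84, 0.67 and 0.60 at LjSGA_029001.1, chr5.LjT24B10.30.nc, LjSGA_003295.2 and CYP73ALT_ntc, and 0.21 and 0.16 above it at LjSGA_082453.1 and LjSGA_031602.1. Wild type 2 differed from the mean of wild type 1 and 3 in the same directions at 5 of these genes, by -0.45, -0.28, -0.32, -0.34 and, at LjSGA_031602.1, 0.10. It was lower by 0.14 at LjSGA_082453.1. The Agilent spike-in probes of line 2 also had a median of 0.81 on the scale used here, while that median was -0.37 to 0.25 for the rest of the arrays. The part of this array difference in the family's values was not tested. Without line 2 all 6 genes were called, but calls grew over the whole array as well. Of all 2487 tested genes 127 rose and 82 fell without line 2, against 55 and 27 as reported.

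The neighbouring steps of the pathway were described from lists of array name codes. For phenylalanine ammonia-lyase (PAL), the step before cinnamate 4-hydroxylase, 4 of 14 tested genes rose and 0 fell (28.6%, beside 2.21% of all genes), 13 had a positive log2 fold change and the median was 1.14. PAL04_chr1.CM0033.850.nc read 5.57, 5.73 and 5.43 in lines 1 to 3, against 4.42, 4.28 and 4.43 in wild type 1 to 3, without overlap (log2 fold change 1.22, limma adjusted p = 0.0459). PAL03_chr1.CM0033.830.nc, a neighbour in name, rose by 1.28 on the log2 scale. It read 5.63, 5.78 and 5.39 in lines 1 to 3, against 4.39, 4.24 and 4.40 in wild type 1 to 3. These levels were close to those of PAL04 on every array, so the 2 rises cannot be counted as separate evidence. Whether the 2 names share signal was not tested. For the step after it, coded CoumLig and read here as coumarate CoA ligase, 3 of 15 tested genes rose (20%, beside 2.21% of all genes) and 0 fell, with a median of 0.15. CoumLig16_chr6.CM0057.160.nc read 1.90, 1.98 and 1.82 in the lines, against 0.52, 0.39 and 0.51 in wild type (log2 fold change 1.44, limma adjusted p = 0.0269), and CoumLig1_chr2.CM0018.1240.nc rose by 1.39.

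Past the general pathway the flavonoid entry comes first. Of its 45 tested genes, coded chalcone synthase, isomerase and reductase, 2 rose (4.44%, beside 2.21% of all genes) and 0 fell, with a median of 0.63. Both were chalcone reductases, which act with chalcone synthase to make the deoxychalcones of legumes. CHR05_CM1092.80.nc read 3.00, 3.60 and 3.20 in lines 1 to 3, against -0.57, 0.74 and -0.48 in wild type 1 to 3 (log2 fold change 3.16, limma adjusted p = 0.0288), so wild type 2 stood above the other wild type arrays. CHR04_CM1092.70.nc also gave 3.16, with 2.96, 3.58 and 3.14 against -0.61, 0.74 and -0.62. These levels were close to those of CHR05 on every array, so the 2 rises cannot be counted as separate evidence. Whether the 2 names share signal was not tested. Of 32 tested isoflavonoid genes 4 rose (12.5%, beside 2.21% of all genes) and 0 fell, with a median of -0.09. They included CYP81E_chr2.CM0250.70.nc, of the isoflavone hydroxylase family of P450s (log2 fold change 1.90, limma adjusted p = 0.0218), and IFR4_, coded as isoflavone reductase (1.69, limma adjusted p = 0.0208).

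On the lignin side, none of the 3 P450 genes coded CYP98A or CYP84A, the aromatic hydroxylases of lignin synthesis, was called. CYP98A_LjSGA_096258.1 differed by 0.58 (limma adjusted p = 0.586), CYP84A_LjSGA_053084.2 by 0.18 (0.911) and CYP84A_chr2.CM0249.290.nd by -1.90 (0.246), all on the log2 scale. Of 26 tested laccases, which polymerise monolignols among other substrates, 0 rose and 2 fell, namely LAC20_LjSGA_027663.1 (-1.69) and LAC02_chr1.CM0147.770.nc (-1.59). Over all tested genes 2.21% rose and 1.09% fell. Of 55 tested flavonol, anthocyanin and proanthocyanidin genes 1 rose (LDO02_chr1.LjB18K24.120.nd, 1.63) and 1 fell (FHYD09_LjT16L08.100.nd, -1.64). The share that rose, 1.82%, was near that of all genes. Among 311 other cytochrome P450 genes 5 rose (1.61%, beside 2.21% of all genes) and 10 fell (median -0.26).

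**Figure D3:**
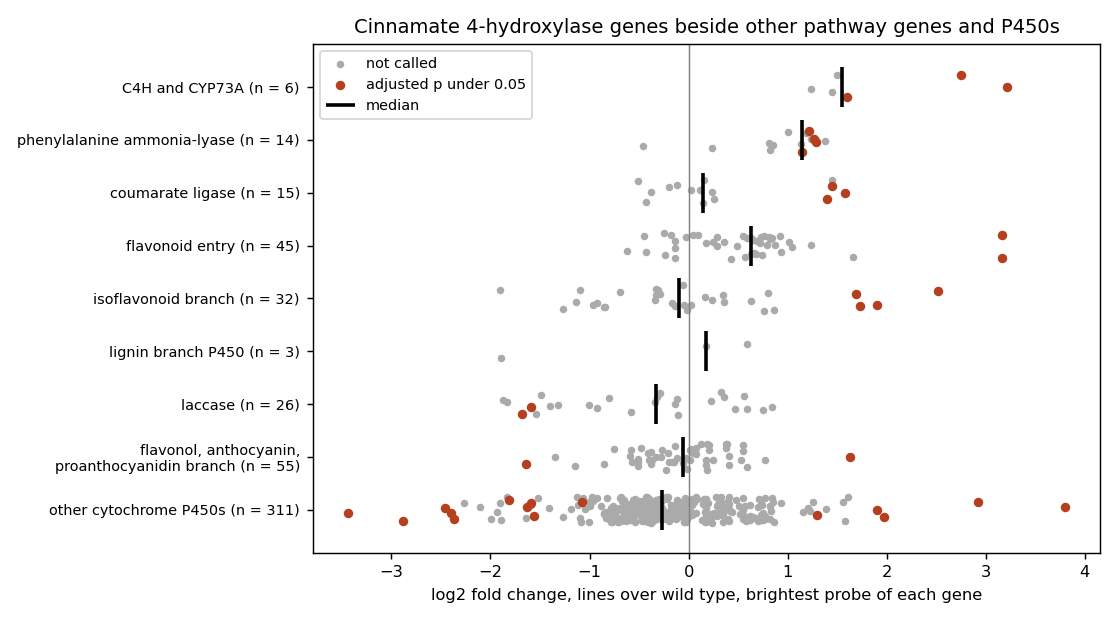
Log2 fold change (labelled lines over wild type) of every tested gene at its brightest probe, by pathway list, with called genes in red and list medians as black bars. The 6 cinnamate 4-hydroxylase genes all lie above 0 with a median of 1.55, next to 1.14 for phenylalanine ammonia-lyase, while the 311 other P450 genes spread on both sides of 0 with a median of -0.26.

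The genes whose profile over the 6 arrays was most like that of CYP73A_LjSGA_082453.1 were ranked by a measure of likeness. This was the root mean square difference of mean-centred log2 levels, which mainly reads the size of the change between groups. LjMYB27, a MYB factor, was nearest at 0.217 (log2 fold change 3.27), with 0.55, 0.20 and 0.70 in lines 1 to 3, against -2.62, -2.87 and -2.77 in wild type 1 to 3. It was followed by LjZF-C3HC4-83, a zinc finger gene (0.237), LjMYB65_est (0.317), LjMADS19 (0.331) and UGT71B_LjSGA_066183.1, a glycosyltransferase (0.363). The nearest other cinnamate 4-hydroxylase gene was LjSGA_029001.1 at 0.475, in place 8 among all genes, and LjSGA_031602.1 came in place 41 at 0.795.

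**Figure D4:**
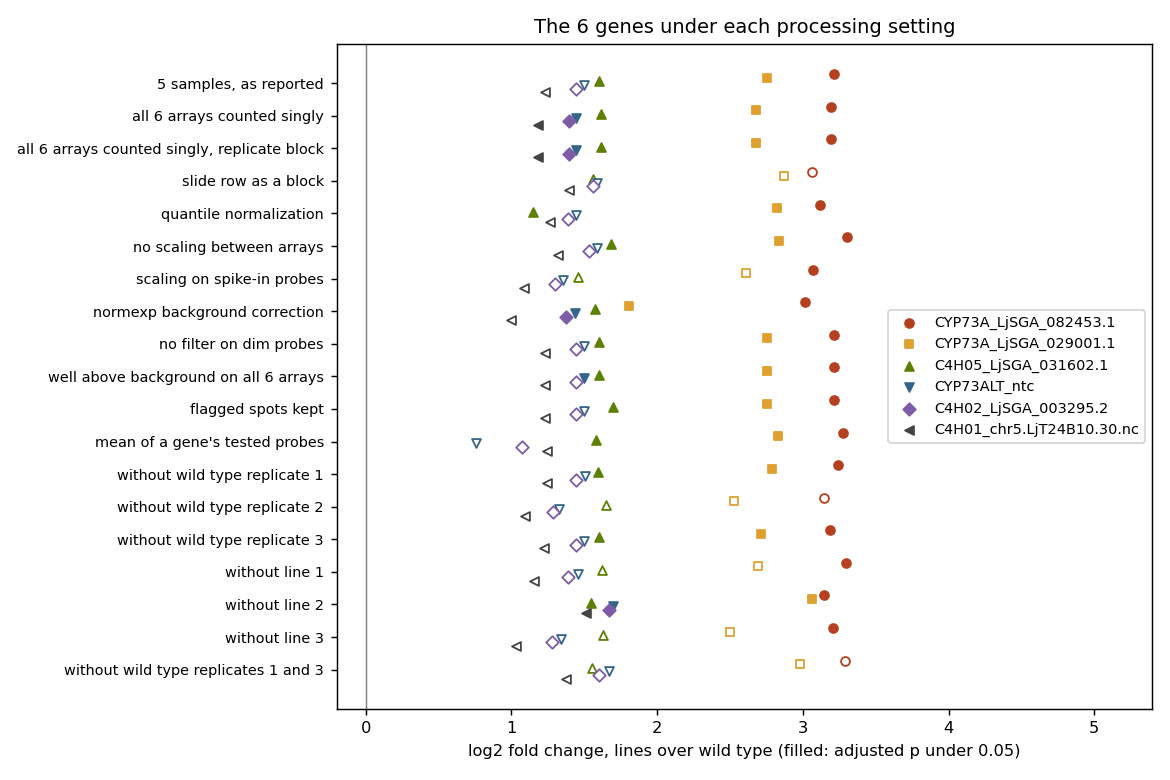
Log2 fold change (labelled lines over wild type) of the 6 genes under each processing setting and with samples left out, filled where the adjusted p was under 0.05. Every value lies above 0, and CYP73A_LjSGA_082453.1 stays between 3.01 and 3.30, while the calls vary with the setting.

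The sign of the 6 fold changes was positive under all 18 other settings and left-out samples tried, as the plot by processing setting shows. The number of genes called ran from 0 to 6. It was 6 when all 6 arrays were counted singly, where 167 of all tested genes rose, against 55 as reported. With slide row as a block it was 0, and 1 of all tested genes rose.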

How the data were processed

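Total RNA of 6 leaf samples was labelled with Cy3 and hybridised to 1 slide of a custom Agilent array. The deposited intensity of each spot was read with Agilent Feature Extraction 10.7.3.1, per the submitters' processing notes, and was background-subtracted and detrended within the array but not scaled between arrays, per the file headers. The deposited value table held the same intensity in 91068 of 91068 cells (column medians 5.54 to 6.04 in log2), so as an alternative it equals leaving out the scaling. From the intensity, log2 minus each array's 75th percentile (364 to 404) over non-control spots was computed. Each array lost 32 to 78 spots to outlier flags, and the remaining spots of a probe were averaged. Between 71.7% and 78.0% of spots were well above background, and the number of arrays limits the precision.

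Testing required 0.5 or more of a probe's spots to be well above background, on 3 or more of the 6 arrays. This left 5039 probes of 2487 genes, with the probe of highest mean standing for its gene. The log2 values were tested with limma 3.58.1 (lmFit, eBayes; R 4.3.3) with Benjamini-Hochberg adjustment over all probes, called at 0.05. Single differences were tested by exact permutation (scipy 1.17.1). The script was tested on simulated data.

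The members and lists were chosen with earlier results of these data known. Genes named are all members, up to 2 called genes per pathway list with the smallest p, and the 5 genes most like the member that changed most. LjMYB14 and LjMYB76a were added as a check of the labels, and the CYP98A and CYP84A genes, none of them called, as the whole of their list. These were chosen after their values had been seen. Alternatives tried were single arrays with and without a replicate block, slide row, quantile, spike-in or no scaling, normexp, filters, flagged spots, mean of probes and samples left out. Mean intensities were not used here, so normexp ran on median signals, with an offset of 50. All arrays shared 1 scan time. Slide row 2 held line 1 with all wild type arrays, and row 1 held lines 2 and 3. Replicate numbers did not pair the samples: same-numbered deviations correlated at 0.01, 0.17 and 0.07.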

Additional observations from a re-analysis of the deposited data

How the results depend on the processing

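No fold change of the 6 genes changed sign under any of the 18 alternatives. At its brightest probe, or at the mean of its probes where that was the setting, LjSGA_082453.1 kept its call under 15 of them. Its log2 fold change was 3.01 to 3.30. By limma it lost the call with slide row as a block (3.06, limma adjusted p = 0.0920), which leaves line 1 as the only line in a row with wild type, without wild type 2 (3.14, limma adjusted p = 0.0643) and without wild type 1 and 3 (3.29, limma adjusted p = 0.114). With single samples left out its value ran from 3.14 to 3.29. The count of member genes that rose was 3 as reported, beside 55 of all genes. It was 6 with all 6 arrays counted singly (167 of all genes) and 6 with the replicate block added to that (112). Slide row as a block gave 0 (1 of all genes), scaling on spike-in probes 1 (6) and normexp 5 (83). With a line left out the count was 6 without line 2 (127 of all genes) and 1 without line 1 (5) or line 3 (19). Without wild type 2, or without wild type 1 and 3, only 1 wild type sample is left, so no count is given. With limma, 6 of the 6 members had an unadjusted p under 0.05 with the row block, as had 298 genes of all. Of the 7 pathway lists, 14 genes rose and 3 fell as reported. The counts were 32 and 16 with arrays counted singly, 30 and 9 with the replicate block, 0 and 0 with slide row, 0 and 0 with spike-in scaling, 23 rising with normexp, 9 and 1 with no filter on dim probes, and 1 falling with quantile normalization. Samples left out gave 0 to 23 rising and 0 to 8 falling. Normexp also changed the differences between LjSGA_029001.1 and other members by over 1.5 times: against LjSGA_082453.1 (1.21 for LjSGA_082453.1 minus LjSGA_029001.1, 0.46 as reported), LjSGA_031602.1 (0.23, against 1.15), LjSGA_003295.2 (0.43, against 1.31), CYP73ALT_ntc (0.37, against 1.25) and chr5.LjT24B10.30.nc (0.81, against 1.52). The change was not confined to LjSGA_029001.1. Normexp also moved differences from chr5.LjT24B10.30.nc, to 0.58 for LjSGA_031602.1 (0.37 as reported), 0.38 for LjSGA_003295.2 (0.21) and 0.44 for CYP73ALT_ntc (0.27). Since the replicate numbers did not pair the samples, the replicate block says nothing of a weaker effect. Spike-in scaling moved the median of all genes to -0.23, against -0.09. LjSGA_029001.1 and LjSGA_031602.1 each lost their call under 6 of 18 alternatives, and chr5.LjT24B10.30.nc, LjSGA_003295.2 and CYP73ALT_ntc gained one under 3, 4 and 5. The mean over a gene's probes gave 0.76 for CYP73ALT_ntc and 1.07 for LjSGA_003295.2. That mean takes in their dimmer probes, which gave 0.02 and 0.70 and were well above background on 4 and 3 arrays. Why the dimmer probes changed less, and the causes of the other shifts, were not tested.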
